A study of Mus musculus with 18 samples.

Results

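The guide-arm microRNAs mmu-miR-128-3p, mmu-miR-137-3p, mmu-miR-138-5p, mmu-miR-153-3p, mmu-miR-218-5p, mmu-miR-135a-5p and mmu-miR-135b-5p, all abundant in brain and written below without the species prefix, were followed across eye, lung and testicle of the mouse. They were listed by name as brain-abundant guides, with no threshold on their values but with earlier results of these data known. They make up 7 of the 1431 mature miRNAs counted in each library. Small RNA had been sequenced from left and right eyes, left and right lungs and left and right testicles of normal male C57BL/6 mice, 8 to 12 weeks old by the labels, with 3 libraries in each of the 6 groups (18 in all). No group carried a treatment or a modified allele. The question was which of these miRNAs were restricted to the eye, whose retina is part of the central nervous system, and which were shared with lung or testicle.

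A microRNA is cut from a hairpin precursor into a duplex, of which the guide arm is mostly kept in the Argonaute complex and pairs with messenger RNAs through its seed (bases 2 to 8), while the passenger arm is mostly degraded. Neurons hold a set of miRNAs at high levels that act on synapse formation, excitability and differentiation. Several of them are made from more than 1 gene, often within introns of host genes. MiR-128 is known in neurons as a regulator of excitability, miR-137 of neuronal differentiation and dendrite growth, and miR-138 of dendritic spine size. MiR-153 is known for its targets in synaptic vesicle release, miR-218 for motor neuron identity and for its position within the Slit genes of axon guidance, and the miR-135 family for regulation of serotonin signalling and, in human colorectal cells, of the Wnt pathway inhibitor APC.

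The mature sequences below, from RefSeq for GRCm38.p6, show the seeds of the members in capitals. A sequence was matched for 6 of the 7, all but miR-135b-5p.

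miR-137-3p: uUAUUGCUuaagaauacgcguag
miR-135a-5p: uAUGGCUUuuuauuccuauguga
miR-153-3p: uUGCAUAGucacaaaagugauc
miR-138-5p: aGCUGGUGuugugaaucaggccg
miR-128-3p: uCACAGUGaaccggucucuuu
miR-218-5p: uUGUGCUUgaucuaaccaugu

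These 6 seeds all differ. Among the 1209 listed miRNAs with a matched sequence, miR-218-5p shared its seed with miR-7002-3p, and the other 5 seeds matched no other miRNA. These 1209 do not include miR-135b-5p, the paralogue of miR-135a-5p, so a seed shared by this pair could not be seen here. Their levels are compared below as 7 separate miRNAs.

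In the RefSeq gene table of GRCm38.p6, 11 precursors were found, each of them inside another gene of the GENCODE M21 annotation. Mir137 (chr3:118433857-118433929) lies in an exon of the noncoding transcript Gm26871, and Mir153 (chr12:117250817-117250885) in an intron of Ptprn2, which encodes a protein of secretory vesicles. MiR-128-3p comes from Mir128-1 (chr1:128202361-128202430) in an intron of R3hdm1 and from Mir128-2 (chr9:112118636-112118711, minus strand) in an intron of Arpp21. MiR-138-5p comes from Mir138-1 (chr9:122682876-122682974), in an exon of the pseudogene Gm47135, and from Mir138-2 (chr8:94324311-94324381), in an exon of the long noncoding RNA C78859. MiR-218-5p comes from Mir218-1 (chr5:48223942-48224051) in an intron of Slit2 and from Mir218-2 (chr11:35616816-35616925) in an intron of Slit3, both genes of secreted guidance cues. MiR-135a-5p comes from Mir135a-1 (chr9:106154124-106154213), in an intron of D030055H07Rik and opposite an exon of Glyctk, and from Mir135a-2 (chr10:92072086-92072185, minus strand), in an intron of the long noncoding RNA Rmst. Mir135b (chr1:132198088-132198184) lies in introns of Lemd1 and of the gene model AC124108.1. Where a guide has a pair of loci, its counts are not assigned to either.

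Library totals were 2451484 to 2680204 counts in eyes, 2538402 to 2790471 in lungs and 952608 to 1893132 in testicles, so low values were least certain in testicles. Levels are given as counts per 1e6 after TMM scaling (CPM), a scaling of library totals by the trimmed mean of log ratios between libraries. The organ labels fitted their markers: the photoreceptor and sensory cell markers miR-183-5p, miR-182-5p and miR-96-5p summed to 92077 to 126151 CPM in eyes, 2366 to 4713 in lungs and 1283 to 2603 in testicles. Endothelial miR-126a, from both arms, summed to 20564 to 29442 CPM in eyes, 46779 to 65067 in lungs and 23544 to 31176 in testicles. The 5 X-linked spermatogenic markers summed to at most 14.9 CPM in eyes and 80.6 CPM in lungs, and to 27449 to 73291 CPM in testicles. Nothing in the labels says which mice gave a left and a right library of 1 organ, or whether they were the same, so p-values measure only the spread between libraries. In these bulk tissues, fewer cells that hold a miRNA and less of it per cell cannot be told apart.

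The 7 miRNAs made up 2.21% ± 0.226 of all counts in eyes, 0.530% ± 0.0515 in lungs and 0.428% ± 0.114 in testicles (SD, n = 6 libraries each). Their make-up differed between the organs. In the eye, miR-135a-5p was the most abundant member, with 57.8% ± 2.20 of their summed counts, followed by miR-218-5p with 19.7% ± 2.20 and miR-135b-5p with 8.90% ± 0.552. In the lung, miR-218-5p alone held 88.7% ± 4.03. In the testicle no member led by as much, with miR-138-5p at 32.0% ± 3.94, miR-135a-5p at 23.2% ± 8.65, miR-218-5p at 19.3% ± 2.04 and miR-128-3p at 17.8% ± 4.37. By mean CPM of library totals, miR-135a-5p ranked 24 of 1431 miRNAs in eyes, 246 in lungs and 95 in testicles, whereas miR-218-5p ranked 46, 44 and 106 in the same organs.

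**Figure D1:**
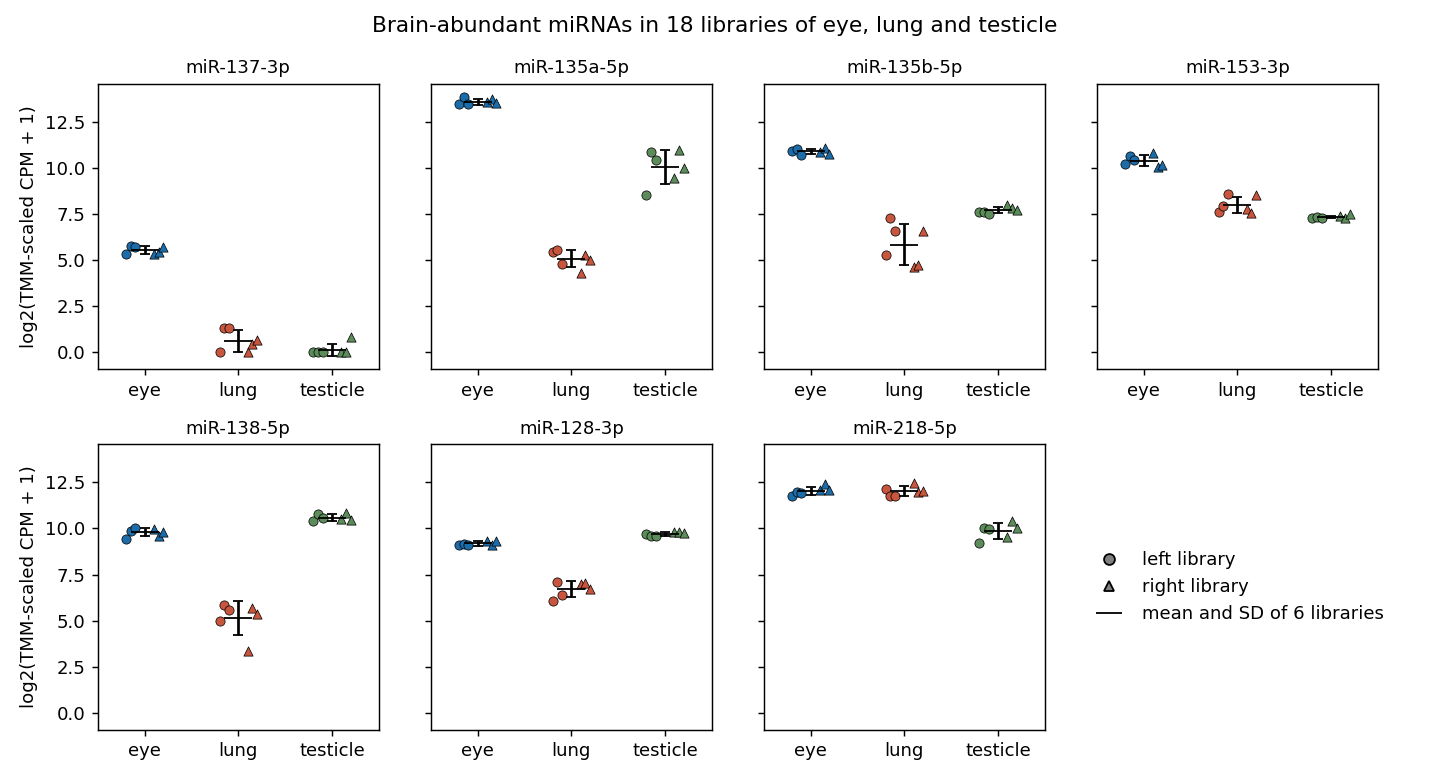
Level of each of the 7 miRNAs in every library, as log2(TMM-scaled CPM + 1), with circles for left and triangles for right libraries and a bar for the mean ± SD of the 6 libraries of an organ. MiR-137-3p sits near 0 outside the eye, miR-218-5p overlaps between eye and lung, and miR-138-5p and miR-128-3p are lower in lungs than in both other organs.

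Each pair of organs was compared with edgeR's quasi-likelihood test on 6 group means over all 18 libraries, with Benjamini-Hochberg adjustment over the 642 miRNAs that passed the filter on low counts, and a difference was called at an adjusted p under 0.05. All 7 members were tested. In eye against lung, 6 were higher in eyes, none was lower and miR-218-5p was not called. Of all tested miRNAs, 35.4% were called higher in eyes than in lungs and 24.5% lower (157, and 271 without right eye 2). In eye against testicle, 5 members were higher in eyes and 2, miR-128-3p and miR-138-5p, were lower in calls that some other scalings did not keep, where 40.2% of all tested miRNAs were higher and 39.1% lower. In lung against testicle, miR-153-3p and miR-218-5p were higher in lungs, 4 members were lower and miR-137-3p was not called, where 27.4% of all tested miRNAs were higher in lungs and 49.1% lower. The median log2 fold change of the members was 4.52 for eye over lung, 3.09 for eye over testicle and -1.62 for lung over testicle, beside 0.00, 0.05 and -0.90 over all tested miRNAs. The comparisons share libraries and are not independent of each other.

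The sizes of the differences from the lung depended on the scaling, and changed when 1 library, right eye 2, was left out. With left testicle 1 as the scaling reference and all 18 libraries kept, the median of all tested miRNAs moved too. It was then -0.51 for eye over lung and -0.37 for lung over testicle. Without right eye 2, the log2 fold changes of the 7 members fell by 0.65 to 0.80 in eye over lung. They were higher by 0.49 to 0.65 in lung over testicle and moved by at most 0.17 in eye over testicle. In eye over lung they were then 7.76 for miR-135a-5p, 5.47 for miR-137-3p, 4.05 for miR-135b-5p, 3.85 for miR-138-5p, 1.76 for miR-128-3p and 1.71 for miR-153-3p, and these 6 calls were kept. In lung over testicle they were -4.70 for miR-138-5p, -4.53 for miR-135a-5p, -2.36 for miR-128-3p and -1.01 for miR-135b-5p, 1.34 for miR-153-3p and 2.78 for miR-218-5p, again with their calls kept, and miR-137-3p gained one at 2.85 (edgeR adjusted p = 0.037). The median of all tested miRNAs moved with the members, to -0.54, -0.05 and -0.29 in the 3 comparisons. Over all settings tried this median lay between -0.54 and 0.22 for eye over lung, -0.24 and 0.56 for eye over testicle and -1.06 and 0.00 for lung over testicle. Values below are those with all 18 libraries.

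A member was classed as restricted to the eye where it was called higher in eyes than in both other organs and both had a mean under 10% of the eye mean. It was classed as shared with an organ that had at least 10% of the eye mean. On this rule miR-137-3p and miR-135a-5p were restricted to the eye. MiR-128-3p, miR-153-3p and miR-218-5p were shared with both other organs, and miR-138-5p and miR-135b-5p with the testicle alone. Of all 642 tested miRNAs, 74 (11.5%) met the rule for restriction. The share of all tested miRNAs with at least 10% of the eye mean in lung or testicle was not computed. Counts of shared miRNAs, here and below, thus have no background to be read against. The threshold of 10% is a choice, and 3 members lay close to it in testicles: miR-135a-5p just inside at 9.88% of the eye mean, miR-135b-5p just outside at 10.95% and miR-153-3p at 11.7%. At this threshold, over 32 settings of scaling, filter, test and libraries, miR-137-3p was restricted in 32, miR-135a-5p in 16 and miR-135b-5p in 2. The other 4 members were restricted in none. Without any single one of left eye 2, right eye 2, right eye 3, left lung 1, left lung 2, right lung 1, right lung 2, left testicle 1, right testicle 1 or right testicle 3, the testicle mean of miR-135a-5p was 10.2% to 12.2% of its eye mean, so the miRNA was then shared with the testicle. Without any other single library it was 8.64% to 9.92%.

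**Figure D2:**
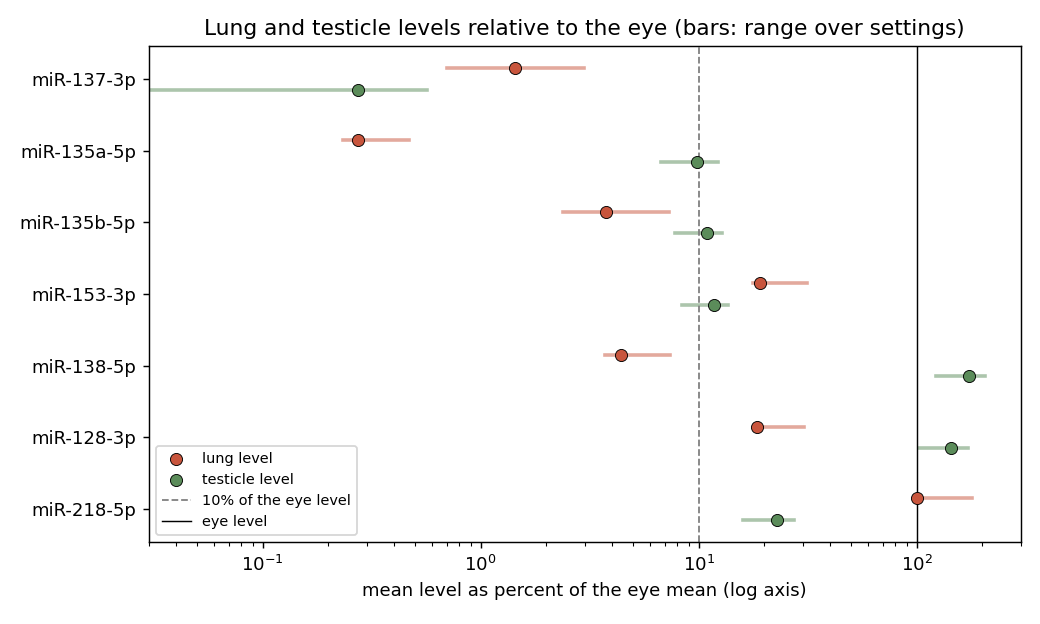
Mean level of each miRNA in lung and testicle as a percent of its eye mean, on a log axis, with points for the values as reported and bars for the range over 32 settings. The dashed line marks 10% of the eye mean, which the testicle ranges of miR-135a-5p, miR-135b-5p and miR-153-3p cross, and bars that reach 0 are cut at the axis.

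MiR-137-3p, a regulator of neuronal differentiation, was the least abundant member and the one closest to absent outside the eye. Its level was 38.6 to 54.0 CPM in the eye libraries (median 46.8), 0 to 1.53 CPM in the lung libraries (median 0.487) and 0 to 0.759 CPM in the testicle libraries (median 0). All eye libraries lay far above every lung and testicle library. In counts, the 6 eye libraries held 732, the 6 lung libraries 13 and the 6 testicle libraries 1. Over library totals without TMM scaling, the eye thus had 59.0 times the lung level (95% interval 34.3 to 111, counting error only). On the same basis it had 425 times the testicle level (76.0 to 16792, which rests on 1 count). In edgeR the log2 fold change was 6.13 for eye over lung (SE 0.45; adjusted p = 1.3e-08), and eye over testicle was called with an adjusted p of 1.8e-08 (8.49, or 9.64 without right testicle 3, which held the 1 testicle count). In lung against testicle the libraries overlapped and the difference was not called (edgeR adjusted p = 0.077). That comparison rests on 13 against 1 counts and was called in 10 of its 31 alternatives, among them without right eye 2, left lung 1, right lung 1 or right testicle 3 (log2 fold changes of 2.66 to 3.72). A count of 0 in left lung 1 or right lung 1 allows up to 1.16 CPM of library totals, and a count of 0 in a testicle library up to 1.58 to 3.15 CPM. Its passenger arm, miR-137-5p, had 1 count in the 6 eye libraries and none in the other 12.

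MiR-135a-5p was the most abundant member in eyes and the one with the largest difference between eye and lung. It had 11048 to 14775 CPM in eyes (median 11690.1), 18.9 to 46.2 CPM in lungs (median 34.6) and 363 to 2014 CPM in testicles (median 1184). The 3 organs did not overlap, with the eye highest and the lung lowest. For this and the other members, the share of all tested miRNAs without such overlap was not computed. The log2 fold change was 8.52 for eye over lung (SE 0.46; edgeR adjusted p = 9.0e-11), 3.34 for eye over testicle (SE 0.36; edgeR adjusted p = 2.7e-07) and -5.18 for lung over testicle (SE 0.40; edgeR adjusted p = 4.1e-09). Its lung level was 0.275% of the eye mean, beside 0.122% for the neuronal marker miR-124-3p and 0.133% for miR-9-5p. In the testicle these markers stood at 3.83% and 4.87% of their eye means and the third, miR-384-5p, at 0.294%, against 9.88% for miR-135a-5p. The summed neuronal markers were 37403 to 68078 CPM in eyes, 15.3 to 161 in lungs and 1622 to 2481 in testicles, none of the 3 being at 0 in any organ. The part of neurons or of eye RNA in these levels was not tested.

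The testicle libraries differed widely in miR-135a-5p. Left testicle 1 had the lowest value, 363 CPM, and right testicle 1 the next, 696 CPM, while left testicle 2 had 1868 CPM and right testicle 2 had 2014 CPM. This range is 5.55-fold and the coefficient of variation 53.5%, larger than that of 94.1% of the 304 tested miRNAs with at least 50 CPM in testicles (median 21.1%). In the eye the coefficient was 11.8%. Left testicle 1 also had the smallest library total of all 18. Its summed neuronal markers were 2481 CPM, the highest among the testicle libraries. The part of neurons in the spread of miR-135a-5p was not tested. MiR-218-5p was lowest in the same libraries, at 592 CPM in left testicle 1 and 747 CPM in right testicle 1, whereas miR-135b-5p spanned only 182 to 253 CPM over the testicle.

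MiR-135b-5p, the paralogue of miR-135a, was likewise highest in eyes but less depleted in lungs. It had 1673 to 2175 CPM in eyes (median 1871), 23.6 to 153 CPM in lungs (median 65.3) and 182 to 253 CPM in testicles (median 199). After TMM scaling the organs did not overlap, and the order was eye, testicle, lung. In CPM of library totals, lungs (23.5 to 184) and testicles (155 to 198) overlapped. The log2 fold change was 4.81 for eye over lung (SE 0.39; edgeR adjusted p = 1.1e-08), 3.20 for eye over testicle (SE 0.36; edgeR adjusted p = 4.8e-07) and -1.62 for lung over testicle (SE 0.34; edgeR adjusted p = 4.4e-04). The last value was -1.01 without right eye 2 (edgeR adjusted p = 0.0129), and with left libraries only it was -0.70 and no longer called (edgeR adjusted p = 0.101). The lung libraries fell into higher and lower ones: left lung 2 had 153 CPM, left lung 3 had 95.4 CPM and right lung 3 had 93.2 CPM, against 37.4, 23.6 and 25.6 CPM in left lung 1, right lung 1 and right lung 2. In the same higher libraries, the summed striated muscle markers miR-1a-3p, miR-133a-3p and miR-206-3p were 513, 416 and 487 CPM, against 44.3, 114 and 90.8 CPM in the lower ones. Endothelial miR-126a, from both arms, divided the same libraries in the other direction, at 46779, 47467 and 49194 CPM against 65067, 63756 and 55343 CPM. The remaining marker lists are not given here, and the part of any list in the miR-135b-5p level was not tested.

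The ratio of miR-135a-5p to miR-135b-5p counts within a library does not depend on scaling, and it separated the lung from the other organs. It was 6.03 to 7.04 in eyes (median 6.51), 0.277 to 1.49 in lungs (median 0.568) and 1.91 to 9.65 in testicles (median 6.21). Every lung library lay below every eye and testicle library. The mean log2 ratio was 3.48 higher in eyes than in lungs and 3.12 lower in lungs than in testicles (-3.12), each with p = 0.0022 in an exact two-sided permutation test, the smallest p that 924 splits allow, and 0.0091 after adjustment over 21 ratio tests. Eye and testicle overlapped, with a difference of 0.36 (exact p = 0.418, adjusted 0.646). The ratio in the eye was almost constant (SD 0.09 on the log2 scale), while in testicles it varied with miR-135a-5p (SD 0.96). The paralogues are close in sequence and the assignment of reads that match both is not given in the sources used here, so the split of counts between them is uncertain.

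**Figure D3:**
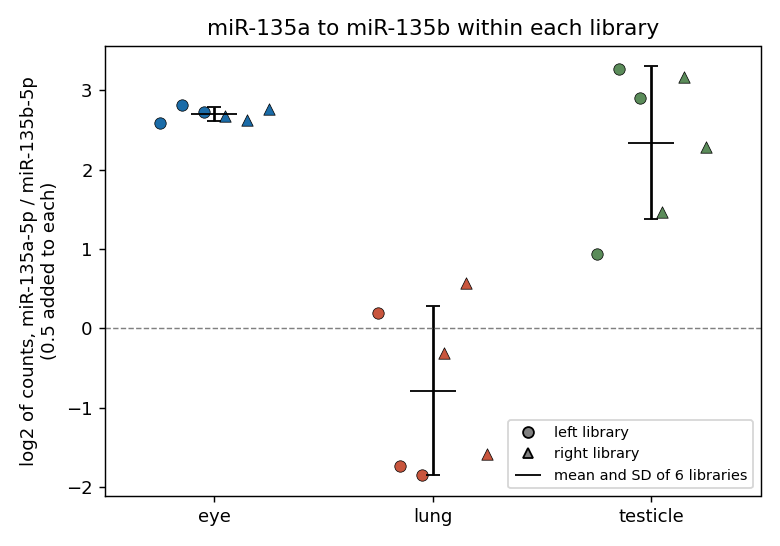
Log2 ratio of miR-135a-5p to miR-135b-5p counts in each library, with 0.5 added to each count, circles for left and triangles for right libraries, and bars for the mean ± SD of the 6 libraries of an organ. The eye libraries lie close together, the lung libraries lie below all others, and left testicle 1 and right testicle 1 are the lowest of the testicle.

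MiR-153-3p, known for targets in vesicle release, was high in eyes and present in both other organs. It had 1064 to 1797 CPM in eyes (median 1281), 185 to 381 CPM in lungs (median 226) and 152 to 176 CPM in testicles (median 157). The organs did not overlap, although the lung and testicle ranges lay close together. The log2 fold change was 2.38 for eye over lung (SE 0.23; edgeR adjusted p = 7.2e-08), 3.09 for eye over testicle (SE 0.23; edgeR adjusted p = 3.1e-09) and 0.71 for lung over testicle (SE 0.22; edgeR adjusted p = 0.0074). The last was 1.34 without right eye 2 and was not called with right libraries only (0.53; edgeR adjusted p = 0.171). Left lung 3 and right lung 3 were the highest lung libraries, at 381 and 360 CPM. The testicle libraries were the most even of any member in any organ, with a coefficient of variation of 5.59%.

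MiR-138-5p, which acts on dendritic spines, was shared between eye and testicle and low in lungs. It had 701 to 1059 CPM in eyes (median 913), 9.27 to 55.9 CPM in lungs (median 44.2) and 1361 to 1801 CPM in testicles (median 1472). After TMM scaling the organs did not overlap. In CPM of library totals, eyes (729 to 1252) and testicles (1046 to 1816) overlapped. The lung mean was 4.40% of the eye mean, and the log2 fold change was 4.52 for eye over lung (SE 0.34; edgeR adjusted p = 4.0e-09) and -5.31 for lung over testicle (SE 0.35; edgeR adjusted p = 7.1e-10). Right lung 1 was the lowest lung library, at 9.27 CPM, and was also the lowest for miR-135a-5p and miR-135b-5p. Its summed neuronal markers were 107 CPM, the second highest in lungs, and their part in these levels was not tested. In eye over testicle the log2 fold change was -0.79 (SE 0.29; edgeR adjusted p = 0.0204), a call that was lost with library sizes alone (-0.53; edgeR adjusted p = 0.140) and with left lung 1 as the scaling reference (-0.29; edgeR adjusted p = 0.322), which moved the median of all tested miRNAs by 0.25 and 0.52. It was lost too with right libraries only (-0.86; edgeR adjusted p = 0.141) and without left eye 1 (-0.71; edgeR adjusted p = 0.051).

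MiR-128-3p, the regulator of neuronal excitability, followed the same order with smaller differences. It had 539.9 to 649.6 CPM in eyes (median 559.9), 65.4 to 136 CPM in lungs (median 117) and 757 to 912 CPM in testicles (median 849). Again the organs did not overlap, with the testicle highest. The log2 fold change was 2.44 for eye over lung (SE 0.18; edgeR adjusted p = 3.8e-09) and -2.97 for lung over testicle (SE 0.18; edgeR adjusted p = 3.5e-10). In eye over testicle it was -0.53 (SE 0.17; edgeR adjusted p = 0.0097), and this call was lost with library sizes alone (-0.27; edgeR adjusted p = 0.198), with left lung 1 as the scaling reference (-0.04; edgeR adjusted p = 0.849), without the filter on low counts (-0.59; edgeR adjusted p = 0.073) and with right libraries only (-0.57; edgeR adjusted p = 0.060). The spread within an organ was small in eyes and testicles, with coefficients of variation of 8.89% and 7.63%, and larger in lungs (26.6%).

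MiR-218-5p, from the Slit genes, was the member whose eye and lung levels overlapped, and the most abundant one in lungs. It had 3508 to 5362 CPM in eyes (median 4137), 3423 to 5746 CPM in lungs (median 4116) and 592 to 1359 CPM in testicles (median 1012). Eye and lung overlapped over most of their ranges, and every testicle library lay below both. The log2 fold change was -0.01 for eye over lung (SE 0.19; edgeR adjusted p = 0.9999), 2.13 for eye over testicle (SE 0.19; edgeR adjusted p = 3.0e-08) and 2.13 for lung over testicle (SE 0.19; edgeR adjusted p = 3.3e-08). The first depended on the scaling: it was -0.71 and called lower in eyes with left testicle 1 as the reference library (edgeR adjusted p = 0.0042) and -0.81 without right eye 2 (edgeR adjusted p = 0.0028), settings that moved the median of all tested miRNAs by -0.52 and -0.55.

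**Figure D4:**
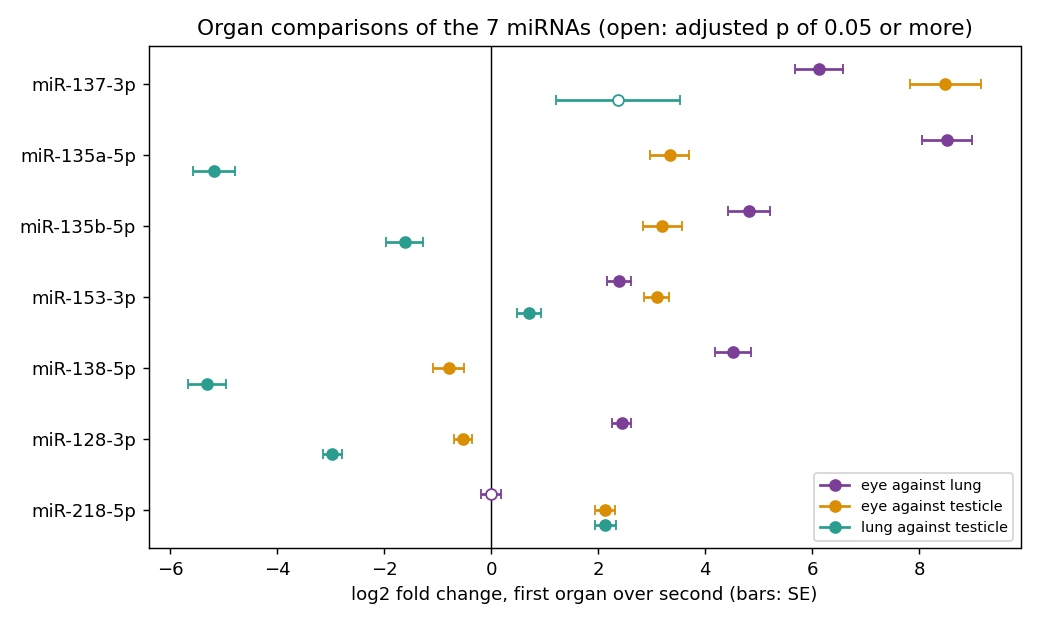
Log2 fold change (first organ over second) with its SE for each miRNA in the 3 organ comparisons from edgeR, with filled points for differences called at an adjusted p under 0.05 and open points for the others. MiR-128-3p and miR-138-5p are below 0 against the testicle in both comparisons, for eye against testicle in calls that some other scalings did not keep, and the open points are miR-137-3p in lung against testicle and miR-218-5p in eye against lung.

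Passenger arms, which unlike the guides differ between the loci of a pair, were counted far less often. Sequences are shown for miR-128 and miR-138, and those of the miR-128 passengers are as follows.

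miR-128-1-5p: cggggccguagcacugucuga
miR-128-2-5p: gggggccgaugcacuguaagaga

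Of the passenger counts summed over 6 libraries, miR-128-1-5p, from R3hdm1, held 77 of 97 in eyes (79.4%, exact 95% interval 70.0 to 86.9), 21 of 23 in lungs (91.3%, 72.0 to 98.9) and 61 of 61 in testicles (100%, 94.1 to 100). MiR-128-2-5p, from Arpp21, thus had 20 counts in eyes, 2 in lungs and none in testicles. The eye share rests on uneven libraries: right eye 3 had 0 counts of miR-128-1-5p and 6 of miR-128-2-5p, while the other eye libraries had 8 to 22 counts of miR-128-1-5p. These intervals cover counting error only, and no test between organs was made because some libraries held under 10 passenger counts.

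The miR-138 precursors are shown with the guide arm and the passenger arm in capitals, the guide first. They carry the same guide and different passengers.

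Mir138-1: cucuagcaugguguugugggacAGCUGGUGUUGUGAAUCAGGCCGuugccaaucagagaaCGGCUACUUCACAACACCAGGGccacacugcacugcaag
Mir138-2: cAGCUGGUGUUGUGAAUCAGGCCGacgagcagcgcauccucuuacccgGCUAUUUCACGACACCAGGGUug

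The passenger of Mir138-2 was the more frequent in every organ, with 212 of 225 passenger counts in eyes (94.2%, exact 95% interval 90.3 to 96.9), 14 of 16 in lungs (87.5%, 61.7 to 98.4) and 56 of 62 in testicles (90.3%, 80.1 to 96.4). Guide counts per passenger count were 63.1 in eyes, 45.6 in lungs and 193 in testicles. The mean log2 ratio of guide to passenger, with 0.5 added to each, was 6.01 ± 0.504 in eyes, 5.06 ± 0.958 in lungs and 7.59 ± 0.590 in testicles (SD, n = 6). It was lower in eyes than in testicles by 1.59 (-1.59; exact permutation p = 0.0065, adjusted 0.0195) and lower in lungs than in testicles (-2.53; exact permutation p = 0.0022, adjusted 0.0091). The difference between eye and lung did not pass (0.94; exact permutation p = 0.039, adjusted 0.082), but it did with 2 added to each count (1.43; adjusted exact p = 0.0076) and without left lung 3 (1.14; adjusted exact p = 0.040). This ratio within a library does not change with the scaling between libraries.

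Passenger counts of the other members were given no test by locus. Where counts allowed, guide-to-passenger log2 ratios of these members were tested as for miR-138-5p. MiR-218-5p was called in eye against lung (-1.52; exact permutation p = 0.0065, adjusted 0.0195). MiR-135a-5p was called in eye against lung (3.45) and lung against testicle (-2.30), each with exact permutation p = 0.0022, adjusted 0.0091. Without miR-135a passenger counts in lungs, its calls cannot separate the arms from the guide level. Of the miR-218 passengers, miR-218-1-3p, from Slit2, held 16 of 42 counts in eyes (38.1%, exact 95% interval 23.6 to 54.4), 15 of 17 in lungs (88.2%, 63.6 to 98.5) and 2 of 2 in testicles, the rest being miR-218-2-3p from Slit3. The eye and lung intervals do not overlap, but they cover counting error only and not the spread between libraries. No lung library held more than 4 counts of miR-218-1-3p or 1 of miR-218-2-3p. MiR-135a-2-3p, from Rmst, held 85 of 89 passenger counts in eyes (95.5%, 88.9 to 98.8) and 4 of 7 in testicles, with none counted in lungs, and miR-135a-1-3p held the remainder. MiR-153-5p had 162 counts in eyes, 31 in lungs and 6 in testicles. MiR-135b-3p had 57 counts in eyes, 1 in lungs and 3 in testicles. A share of passenger counts is not a share of transcription, since arms of different precursors can be kept at different rates.

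The left libraries of each organ were then set against its right ones. No miRNA was called in eyes (487 tested), lungs (430) or testicles (464), which is 0% in each, with 18, 1 and 36 at an unadjusted edgeR p under 0.05 and 1, 0 and 1 called by DESeq2. All 7 members were tested in eyes and 6 in lung and testicle, where miR-137-3p was too low. None had an unadjusted p under 0.05 in any organ, by edgeR, and none was called by DESeq2. The largest log2 difference was that of miR-135b-5p in lungs, 0.89 for left over right (SE 0.69; edgeR adjusted p = 0.908), with 95.4 ± 58.0 CPM in left lungs and 47.4 ± 39.6 CPM in right lungs (SD, n = 3 each). In the eye the largest was that of miR-218-5p (-0.29, SE 0.16; edgeR adjusted p = 0.982), with 3780 ± 252 CPM in left eyes and 4635 ± 630 CPM in right eyes. These CPM were scaled over all 18 libraries and the log2 differences over the 6 libraries of an organ, so they need not match. A joint edgeR test of whether the side difference varied between organs called none of 642 miRNAs and none of the 7 members (21 at an unadjusted p under 0.05, none of them a member).

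The members were set beside 22 other brain miRNAs, a list written from general knowledge. Of these, 20 were higher in eyes than in lungs and 2 were not called, 21 were higher in eyes than in testicles and 1 was not called, and in lung against testicle 3 were higher, 11 lower and 8 not called. Their median log2 fold change was 6.30 for eye over lung, 4.10 for eye over testicle and -1.57 for lung over testicle. Under 10% of the eye mean in both other organs were 14 of the 22, whereas 5 had at least 10% in lungs and 6 in testicles. The most abundant of them in lungs were miR-328-3p, with 2075 ± 341 CPM in eyes and 1548 ± 798 CPM in lungs, and miR-7a-5p, with 4557 ± 828 CPM in eyes and 415 ± 102 CPM in lungs. In the testicle they were miR-328-3p, at 1703 ± 290 CPM, and the neuronal miR-124-3p, with 41220.5 ± 12512 CPM in eyes and 1579 ± 300.2 CPM in testicles (SD, n = 6). None of the 22 was called lower in eyes than in testicles, as miR-128-3p and miR-138-5p were. The difference between the lists was not tested, and both were chosen with earlier results of these data known.

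For each member, the miRNAs with the most similar pattern were found by Pearson's r of log2(CPM + 1) over the 18 libraries, among 308 miRNAs with a mean of at least 50 CPM. These libraries fall into 3 organs, so r mostly reflects the differences between organs. MiR-137-3p was most like the photoreceptor miR-182-5p (r = 0.986) and miR-7b-5p (0.985), and miR-153-3p most like miR-96-5p (0.968) and miR-182-5p (0.968), of the same sensory cluster. MiR-135a-5p was most like miR-7689-3p (0.985) and the neuronal miR-9-5p (0.983). MiR-135b-5p was most like miR-410-3p (0.975) and miR-369-3p (0.973), which come from the imprinted Dlk1-Dio3 region. MiR-128-3p and miR-138-5p shared their nearest miRNA, miR-409-3p (0.954 and 0.957), which had 85.5 ± 12.5 CPM in eyes, 12.2 ± 2.99 in lungs and 78.3 ± 18.7 in testicles. The second nearest was miR-296-5p for miR-128-3p (0.934) and miR-193b-3p for miR-138-5p (0.955). MiR-218-5p was most like miR-181c-5p (0.970), with 9207 ± 584 CPM in eyes, 8081 ± 1659 in lungs and 1866 ± 295 in testicles, and miR-490-5p (0.962).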

How the data were processed

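Small RNA of 18 libraries was sequenced by the BGI-500 procedure from spin-column RNA, per the labels' protocols. Each deposited table holds raw read counts of mature miRNAs in whole numbers, with no scaling, per the file headers and the values. The submitters' processing notes name GRCm38.p6, while aligner, counter, handling of reads with several matches and use of molecular identifiers were not given in the sources used here. Intervals, and the limit of 3 counts set for a count of 0, cover counting error only, because PCR copies are not separate molecules.

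Tests on counts used edgeR 4.0.16 under R 4.3.3 (TMM scaling, filterByExpr by group, quasi-likelihood test, Benjamini-Hochberg at 0.05), after a check on simulated counts; 642 miRNAs passed and 789 did not. Organs were compared as means of both sides in a fit of 6 groups, and sides within an organ on its 6 libraries. Ratios used exact two-sided permutation (scipy 1.17.1) where both miRNAs together had at least 10 counts in every library. SEs are the log2 fold change over the root of F. DESeq2 1.42.0, limma 3.58.1, other scalings, filters and subsets of libraries were alternatives. The text names the members, their passenger arms, miRNAs with a shared seed, for each member the pair most like it, and the pair of other brain miRNAs highest in lung and in testicle. Members and lists were chosen with earlier results of these data known.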

Additional observations from a re-analysis of the deposited data

Results flagged for a closer look

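In 21 sets of 6 libraries (7 members in 3 organs), 1 value stood apart from the rest by Dixon's criterion, whose critical ratio is 0.625 and which chance exceeds in about 1 of 20 sets. It was miR-137-3p in right testicle 3, with a gap-to-range ratio of 1.0. That library had 1 count and the other testicle libraries had 0, so the ratio is 1.0 whatever the size of the count. The rate of 1 in 20 does not hold for such a set. The value lies below the limit that a count of 0 allows.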

How the results depend on the processing

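Of 671 alternative values for the members in the organ comparisons, 647 kept their direction and side of the threshold, 14 gained a call, 10 lost one and none reversed. Members called lower in eyes than in lungs numbered 1 (against 0) with left testicle 1 as reference, without left lung 2 and right lung 1, and without left lung 1 and right lung 3, and 0 to 1 when single libraries were left out. That member was miR-218-5p, at -0.56 and -0.50 (edgeR adjusted p = 0.0155 and 0.0466) without those pairs of lungs. All miRNAs lower in eyes than in lungs numbered 157, but 262, 272 and 240 in these 3 settings, and 154 to 271 without single libraries, the highest without right eye 2. Members lower in eyes than in testicles numbered 2, but 0 with library sizes alone, left lung 1 as reference or right libraries only, 1 with no filter and 1 to 2 without single libraries. Members higher in lung than testicle numbered 1 with right libraries only. Members restricted to the eye numbered 2, but 1 with left testicle 1 as reference, no filter, left or right libraries only, either pair of lungs left out or a fraction of 0.05, 4 with 0.25, and 1 to 2 without single libraries. With 0.25, 1 was shared with lung and 2 with testicle, and 3 were shared with testicle with library sizes alone, left lung 1 as reference or the CPM of library totals. Left against right gave 4 miRNAs higher and 2 lower in eyes with no filter, 1 higher with DESeq2 and 0 to 1 without single libraries; 1 lower in lungs with no filter; and in testicles 1 lower with DESeq2 and 0 to 1 either way without single libraries. None was a member. The guide-to-passenger log2 ratio of miR-153-3p in eye against testicle was -0.44 and reversed to 0.83 with 2 added (adjusted exact p = 0.045). Of 268 alternatives for these arm ratios, 3 lost a call and 10 gained one, and the ratios rest on few passenger counts. Calls were gained with 2 added for miR-138-5p (1.43) and miR-135b-5p (2.45) in eye against lung, for miR-218-5p (1.37), miR-135a-5p (2.18) and miR-135b-5p (2.03) in eye against testicle, and for miR-218-5p in lung against testicle (2.45). They were also gained for miR-138-5p in eye against lung without left lung 3 (1.14), for miR-218-5p in lung against testicle without left testicle 2 (1.74) and for miR-135a-5p in eye against testicle without right testicle 1 (1.29) or 2 (1.38). That of miR-135a-5p in lung against testicle was lost with 0.1 added (-0.96), and that of miR-218-5p in eye against lung (-1.52) without left eye 2 (-1.38) or left eye 3 (-1.36). The cause of these changes was not tested. No miR-135a passenger was counted in lungs, so its ratio there reflects only the guide count and the added constant. MiR-135b-3p had 1 count in lungs and the miR-218 passengers 2 in testicles, which is nearly the same case. Calls on such ratios cannot separate the arms from the guide level.

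With the replicate number as a block, no call of a member changed: 231 miRNAs were higher and 152 lower in eye against lung, 259 and 250 in eye against testicle, and 176 and 314 in lung against testicle. Same-numbered left and right libraries correlated in their deviations by -0.42 to -0.11 in eyes, -0.02 to 0.40 in lungs and 0.02 to 0.24 in testicles, and 8 of all 45 pairs exceeded 0.1. As a hint from the data only, 0 of 6 eye, 4 of 6 lung and 5 of 6 testicle libraries correlated best with their own number. The labels do not say whether the numbers pair the samples, and the criterion of every pair over 0.1 was not met. The smaller testicle totals limit low values there.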
